A study of Mus with 18 samples.

Results

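The CC chemokines described here are 10 secreted ligands, Ccl2, Ccl3, Ccl4, Ccl5, Ccl6, Ccl7, Ccl8, Ccl9, Ccl11 and Ccl22, taken by symbol from the 21401 gene symbols listed for cultured cells and for mouse muscle. All 10 were found in both experiments. RNA was sequenced from 18 libraries, 3 for each of 3 groups in each experiment. The study asked how moringa isothiocyanate-1 (MIC-1), an isothiocyanate from seeds of Moringa oleifera, alters the response to lipopolysaccharide (LPS), the outer membrane component of Gram-negative bacteria.

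The cells are labelled C2C12, a mouse myoblast line, wild type. Their control group received saline according to the labels, the LPS-treated samples received 1 μg/mL LPS, and the LPS-MIC-1-treated samples received the same LPS with 10 μM MIC-1 for 24 h. The study's account of this experiment names another MIC-1 concentration than the labels, and ethanol as the vehicle. The concentration and the vehicle are therefore uncertain. The muscle is gastrocnemius of wild-type C57BL/6 male mice. The control mice received vehicle, and LPS was injected into the peritoneum at 10 mg/kg, 16 h before the muscle was taken. The LPS-MIC-1 mice also received 80 mg/kg MIC-1 by mouth on 3 days before LPS. No group of MIC-1 without LPS was included. Nothing states that the libraries of cultured cells came from separate cultures, so their p-values measure the spread between these samples, which may be technical.

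CC chemokines carry a pair of adjacent cysteines and guide leukocytes by binding receptors of the Ccr family. Ccl2 and Ccl7 attract monocytes, mainly through Ccr2. Ccl3, Ccl4 and Ccl5 act on monocytes and T cells. Ccl6 and Ccl9 are rodent ligands of Ccr1, Ccl11 (eotaxin) attracts eosinophils through Ccr3, and Ccl22 binds Ccr4 on T cells. LPS is sensed by Tlr4 with Cd14 and Ly96, and the NF-κB factors released downstream switch on many of these genes in macrophages. In injured muscle, chemokines bring in the monocytes that clear debris.

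In the order of genes given by RefSeq for the mouse, Ccl2, Ccl7, Ccl11, Ccl12, Ccl8 and Ccl1 follow each other. A second run holds Ccl5, Ccl9, Ccl6, Ccl3 and Ccl4, whereas Ccl22 lies apart, between Pllp and Cx3cl1. The gene models of Ccl3 and Ccl4 overlap from start to end. Whether reads are split between these neighbours was not tested, so their separate levels are uncertain. Levels are given in FPKM, fragments scaled for the length of the transcript and for sequencing depth, and can therefore be compared between genes per length.

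The labels were checked against markers of cell types before the chemokines were compared. In the cultured cells, the 13 macrophage markers found summed to 9147 to 9174 FPKM in control, 5017 to 5155 with LPS and 137, 7.34 and 3.13 with LPS-MIC-1 replicates 1, 2 and 3. The 9 myoblast markers summed to 0.136 to 0.408 FPKM in control, 0.301 to 2.43 with LPS and 843 to 1100 with LPS-MIC-1. Myod1, which defines the myoblast, was at 0, 0 and 0.0293 FPKM in control, 0, 0 and 0.0355 with LPS and 56.7, 49.5 and 55.7 with LPS-MIC-1. By their mean over the 9 libraries, Lyz2 and Fcer1g were the most abundant macrophage markers, and Des and Cdh15 the most abundant myoblast markers. The 7 fibroblast markers, led by Col3a1 and Dcn, summed to at most 1.78 FPKM in control and LPS and to 375 to 463 in LPS-MIC-1. The 6 libraries labelled control and LPS therefore go against their cell line, and each group is called by its label only. In every comparison of LPS-MIC-1 with these libraries, the treatment and the cell markers cannot be told apart. In the muscle, the 11 muscle fibre markers, led by Acta1 and Ckm, had a median of 12128 to 14499 FPKM per library, which matches the labelled tissue.

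Ccl3 dominated the libraries labelled C2C12 control and LPS. The 10 genes summed to 1092, 1084 and 1101 FPKM in control, of which Ccl3 held 65.4 to 67.1%. In LPS they summed to 28468, 29219 and 28012 FPKM, which was 3.99 to 4.21% of all FPKM, and Ccl3 held 59.6 to 61.1% with Ccl5 second. In LPS-MIC-1 they summed to 1363, 729 and 822 FPKM. Ccl3 still led replicate 1, but Ccl2 and Ccl7 led replicates 2 and 3, where Ccl2 alone held 52.2 and 55.3% of the sum.

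Genes with a mean FPKM over 1 in the 9 libraries of an experiment were fitted with limma on log2(FPKM + 0.1), the scale of every log2 fold change below. Standard errors (SE) are those of limma, and p-values were adjusted by the method of Benjamini and Hochberg over all genes tested. Calls needed a log2 fold change beyond 1 in either direction, with an adjusted p below 0.001 for the cultured cells and below 0.05 for muscle. All 10 genes were tested in the cultured cells, although Ccl8, Ccl11 and Ccl22 passed the FPKM limit through a single group. Hence no count or median over the 10 is read as support. Between LPS and control, 4 of the 10 were higher and 0 were lower, against 10.9% of 10877 tested genes called higher and 10% called lower. Their median log2 fold change was 3.78, against 0 over all tested genes. At an unadjusted p under 0.05, 6 of the 10 passed. In 8 of the 10, every LPS library lay above every control library, against 39.4% of tested genes, and in 0 every LPS library lay below, against 40.1%. Between LPS-MIC-1 and LPS, 3 were higher (24.3% of tested genes) and 7 were lower (25.6%). Between LPS-MIC-1 and control, 4 were higher (21.1%) and 2 were lower (22.1%). Without overlap, 3 lay above LPS and 7 below it in LPS-MIC-1, against 41.8 and 43.7% of tested genes, and 4 lay above control and 5 below it, against 40.3 and 42.7%. These comparisons share libraries and are therefore not independent. A 2-sided exact permutation test of 3 against 3 libraries cannot give a p below 0.1.

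Among the monocyte attractants, Ccl2 was at 82.0, 74.7 and 83.1 FPKM in control, 948, 953 and 953 with LPS and 313, 381 and 455 with LPS-MIC-1. The 3 groups did not overlap, with LPS highest and control lowest. Its log2 fold change was 3.57 (SE 0.120, limma adjusted p = 1.6e-07) for LPS against control and -1.33 (SE 0.120, adjusted p = 1.21e-05) for LPS-MIC-1 against LPS. LPS-MIC-1 stayed above control, by 2.24 on the log2 scale. Its neighbour Ccl7 was at 1.81, 1.78 and 2.44 FPKM in control, 85.7, 93.9 and 90.4 with LPS and 250, 278 and 301 with LPS-MIC-1. Ccl7 was thus highest in LPS-MIC-1, with no overlap. It was called higher in LPS than in control (log2 fold change 5.43, adjusted p = 3.41e-08) and higher again in LPS-MIC-1 than in LPS (1.61, adjusted p = 3.98e-06). The ratio of Ccl2 to Ccl7 was 34.1 to 45.4 in control, 10.1 to 11.1 with LPS and 1.26 to 1.51 with LPS-MIC-1. Ccl8 was listed at 0 in all 6 control and LPS libraries and at 42.0, 37.3 and 36.4 FPKM in LPS-MIC-1. No fold is given against the groups listed at 0, and the difference was called (adjusted p = 2.78e-09). Ccl2, Ccl7 and Ccl8 therefore did not move alike between LPS and LPS-MIC-1.

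Ccl3 was at 721, 727 and 720 FPKM in control, 17399, 17825 and 16689 with LPS and 447, 14.6 and 9.73 with LPS-MIC-1. Ccl4 followed it, at 148, 140 and 154 FPKM in control, 2750, 2929 and 2894 with LPS and 77.0, 2.53 and 1.76 with LPS-MIC-1. In both genes, LPS-MIC-1 replicate 1 lay far above replicates 2 and 3 and still below every control library. The ratio of Ccl3 to Ccl4 stayed between 4.68 and 6.33 in all 9 libraries. The mean of Ccl3 was 24.0-fold that of control in LPS and the mean of Ccl4 19.4-fold. With the spread of the LPS-MIC-1 libraries in the fit, neither rise was called, with log2 fold changes of 4.58 for Ccl3 (SE 1.25, adjusted p = 0.0123) and 4.28 for Ccl4 (SE 1.23, adjusted p = 0.0155). Without LPS-MIC-1 replicate 1, both were called, at adjusted p = 3.35e-07 and 2.44e-07. Both were lower with LPS-MIC-1 than with LPS, by log2 fold changes of -8.75 (adjusted p = 0.000216) and -8.63 (adjusted p = 0.00021). Leaving out a single LPS library or LPS-MIC-1 replicate 2 moved these p-values to between 0.00109 and 0.00119, past the limit. Against control, Ccl3 differed by -4.17 (adjusted p = 0.0143) and Ccl4 by -4.35 (adjusted p = 0.0107), neither called. Without LPS-MIC-1 replicate 1 they were called lower than control, at -5.91 and -6.06.

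Ccl5 had the largest rise of the 10 genes between control and LPS. It was at 5.07, 6.28 and 9.34 FPKM in control, 7072, 7189 and 7156 with LPS and 218, 10.3 and 9.03 with LPS-MIC-1. The log2 fold change was 10.04 (SE 1.09, adjusted p = 7.87e-05) for LPS against control and -8.02 (SE 1.09, adjusted p = 0.000155) for LPS-MIC-1 against LPS. LPS-MIC-1 and control overlapped (2.02, adjusted p = 0.118), with replicate 3 of LPS-MIC-1 below the highest control library. The 95% interval of that difference ran from -0.50 to 4.54. Without LPS-MIC-1 replicate 1, which stood at 218 FPKM, the difference was 0.52 (adjusted p = 0.0645).

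Ccl9 was at 132, 132 and 130 FPKM in control, 204, 218 and 220 with LPS and 7.24, 0.681 and 0.456 with LPS-MIC-1. The LPS libraries lay above control without overlap. With the spread of the LPS-MIC-1 libraries in the fit, the difference did not pass (log2 fold change 0.70, SE 0.837, adjusted p = 0.5). It was also under the fold limit. LPS-MIC-1 was lower than LPS by -7.18 (adjusted p = 5.95e-05) and lower than control by -6.48. Ccl6, next to it, was at 2.24, 2.02 and 2.15 FPKM in control, 4.31, 5.77 and 5.08 with LPS and 0.0557, 0.180 and 1.03 with LPS-MIC-1. In contrast to Ccl3, Ccl4, Ccl5 and Ccl9, its highest LPS-MIC-1 library was replicate 3. For Ccl6 too, LPS lay above control without overlap. The difference was not called (1.19, adjusted p = 0.13), again with the spread of LPS-MIC-1 in the fit. Ccl6 was called lower with LPS-MIC-1 than with LPS (-3.80, adjusted p = 0.000496), a call lost without any single control library, at adjusted p = 0.00126 to 0.00128, or without any single LPS library, at 0.00199 to 0.00263. It was also lost without LPS-MIC-1 replicate 2, at 0.00265. Its difference from control, -2.61 (adjusted p = 0.00459), was not called, but was without LPS-MIC-1 replicate 3 (-3.42, adjusted p = 1.24e-05).

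Ccl22 was at 0.276, 0.243 and 0.210 FPKM in control, 4.58, 5.88 and 5.55 with LPS and 0.0427, 0 and 0 with LPS-MIC-1. The 3 groups did not overlap, and the log2 fold change was 3.98 (adjusted p = 9.21e-07) for LPS against control and -5.59 (adjusted p = 3.9e-08) for LPS-MIC-1 against LPS. It was also called lower in LPS-MIC-1 than in control (-1.60), a difference of under 1 FPKM. Ccl11 went the other way. It was at 0, 0.0560 and 0 FPKM in control, 0.0668, 0.0675 and 0 with LPS and 8.16, 5.27 and 7.26 with LPS-MIC-1. LPS-MIC-1 lay above both other groups, with log2 fold changes of 5.61 (adjusted p = 3.91e-07) against LPS and 5.89 against control. Ccl8 and Ccl11, both at or near 0 elsewhere, were thus found where the myoblast and fibroblast markers were found.

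**Figure D1:**
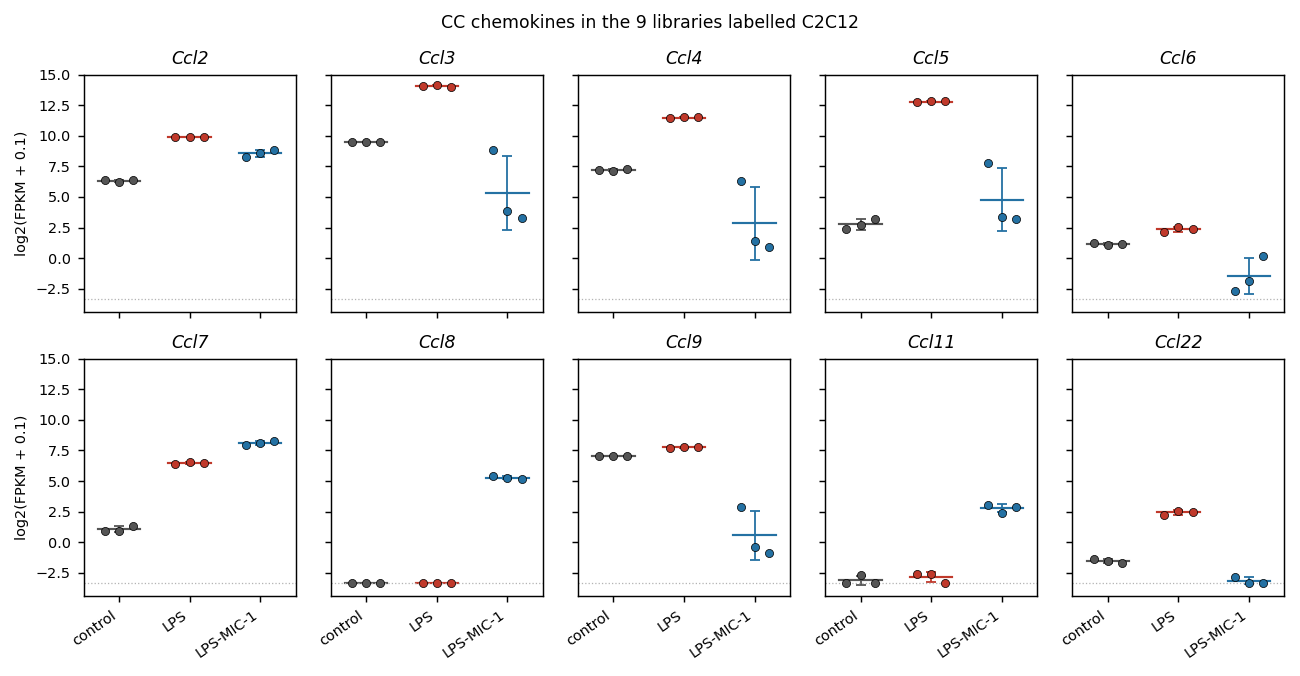
FPKM of the 10 CC chemokines in the 9 libraries labelled C2C12, on a log2(FPKM + 0.1) axis. Points are libraries (replicates 1 to 3 from left to right), horizontal lines are group means, bars are 1 SD, and the dotted line marks 0 FPKM. Ccl3, Ccl4, Ccl5 and Ccl9 show 1 LPS-MIC-1 library far above the other two, whereas Ccl7, Ccl8 and Ccl11 are highest in LPS-MIC-1.

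The LPS-MIC-1 libraries were also expressed as a percentage of the mean in LPS. In replicate 1, Ccl3, Ccl4, Ccl5 and Ccl9 were at 2.58 to 3.39% of their LPS mean. The 10 macrophage markers with a mean of at least 10 FPKM in LPS were at 2.49 to 3.50% in the same library, with a median of 2.83%. In replicate 2 the same 4 chemokines were at 0.0846 to 0.318% and the markers at 0 to 0.285%. In replicate 3 they were at 0.0563 to 0.213% and 0 to 0.278%. The 4 chemokines thus lay at or near the levels of the macrophage markers in each library. These 4 were grouped after their values were seen. Ccl2 (33.0, 40.0 and 47.8%) and Ccl7 (277, 308 and 335%) lay far above the markers. Both were lowest in replicate 1, where the macrophage markers were highest. Ccl6 (1.10, 3.57 and 20.4%) was also lowest in replicate 1, below the markers there and above them in replicates 2 and 3. Ccl22 (0.800, 0 and 0%) lay below the markers in replicate 1. By the spacing of low FPKM values, replicate 3 was the shallowest library (0.549 of the typical depth in the experiment) and replicate 1 was at 0.849. The part of the macrophage markers, of reads carried over between libraries and of depth in these differences was not tested.

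**Figure D2:**
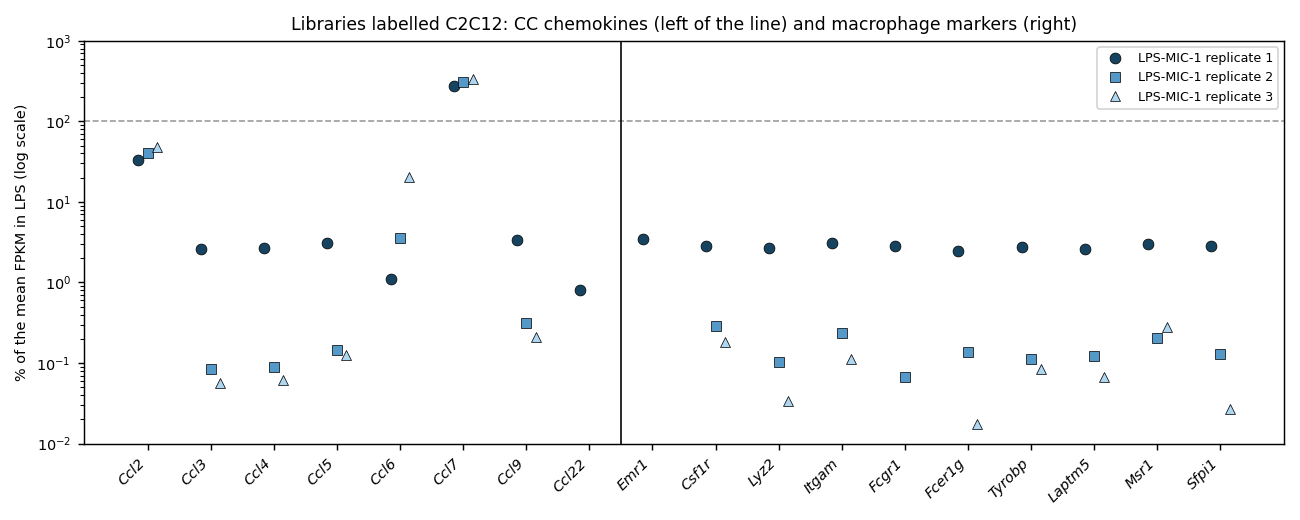
Level in each LPS-MIC-1 library labelled C2C12 as a percentage of the mean FPKM in LPS (log axis), for 8 CC chemokines and 10 macrophage markers. Values of 0 are not drawn, Ccl8 and Ccl11 have no or almost no LPS level to divide by, and the dashed line marks the LPS mean. In replicate 1, Ccl3, Ccl4, Ccl5 and Ccl9 lie in the band of the macrophage markers.

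In muscle the sum of the same genes was far lower, but this did not hold for every member. Ccl11 had means of 7.54, 11.5 and 9.70 FPKM in control, LPS and LPS-MIC-1. Its means in the cultured cells were 0.0187, 0.0448 and 6.90. Ccl8 in control and LPS, and Ccl6 and Ccl22 in LPS-MIC-1, also had higher means in muscle. The 10 genes summed to 10.1, 9.97 and 11.3 FPKM in control, 14.9, 17.6 and 16.9 with LPS and 50.2, 48.1 and 63.9 with LPS-MIC-1. Ccl11 held 70.6 to 73.8% of the sum in control and 63.9 to 76.7% in LPS. In LPS-MIC-1 Ccl5 was the leading member, with 32.1 to 47.5%. In whole muscle, fewer cells of a type and less RNA per cell cannot be told apart. Of the 10 genes, 6 passed the FPKM limit (Ccl2, Ccl3, Ccl5, Ccl6, Ccl9 and Ccl11), and Ccl2, Ccl3 and Ccl5 passed only through LPS-MIC-1, so no count over the 6 is read as support. Between LPS and control, 1 of 6 was called higher, against 0.654% of 9475 tested genes, and 0 were called lower (0.591%), with 3 of the 6 at an unadjusted p under 0.05. Between LPS-MIC-1 and LPS, 3 were called higher (9.67% of tested genes) and 1 lower (5.44%). Between LPS-MIC-1 and control, 4 were called higher (9.33%) and 0 lower (6.12%), with 5 of the 6 at an unadjusted p under 0.05. Of all 10 members, 4 lay above control without overlap in LPS (18.8% of tested genes) and 0 below (17.7%). Among these 4, Ccl8 was apart only by 0.457 against 0.454 FPKM. In LPS-MIC-1, 7 lay above LPS (32.5%) and 1 below (31.7%), and 8 lay above control (33.4%) and 1 below (31.1%). These counts include members under the FPKM limit, whereas the shares cover only tested genes. Ccl4, Ccl7, Ccl8 and Ccl22 were left out by the limit. The last 3 were fitted without it, among 15434 genes above 0 in at least 3 libraries. In that fit, 0.551% of genes were called higher and 0.57% lower between LPS and control, 8.81 and 5.17% between LPS-MIC-1 and LPS, and 8.58 and 5.93% between LPS-MIC-1 and control.

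Ccl2 in muscle was at 0.240, 0.119 and 0.119 FPKM in control, 0.725, 0.609 and 0.360 with LPS and 11.4, 9.03 and 10.8 with LPS-MIC-1. The groups did not overlap. It was the single member called between LPS and control (log2 fold change 1.35, SE 0.282, adjusted p = 0.0151). That call rests on few reads. Low FPKM values of a gene came in steps, each about the value of 1 read. In steps of 0.119 FPKM, the control libraries held 2.02, 1.00 and 1.01, the LPS libraries 6.11, 5.14 and 3.04, and the LPS-MIC-1 libraries 96.5, 76.2 and 91.3. Without LPS replicate 1 or replicate 2 the call was lost, at adjusted p = 0.0509 and 0.0504. LPS-MIC-1 was higher than LPS by 4.02 (adjusted p = 6.24e-06) and higher than control by 5.37 (adjusted p = 1.07e-06).

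Ccl7 was at 0.204, 0.101 and 0.408 FPKM in control, 0.206, 0.311 and 0.307 with LPS and 2.01, 1.54 and 1.01 with LPS-MIC-1. Control and LPS overlapped, and every LPS-MIC-1 library lay above both. Without the FPKM limit it was called higher in LPS-MIC-1 than in LPS (2.08, adjusted p = 0.00275) and than in control (2.32, adjusted p = 0.00146). Ccl8 was at 0.454, 0.223 and 0 FPKM in control, 0.457, 0.696 and 0.681 with LPS and 1.79, 1.70 and 1.81 with LPS-MIC-1. LPS-MIC-1 lay above LPS without overlap, but the difference did not pass (1.41, adjusted p = 0.075, 95% interval 0.15 to 2.67), while that from control did (2.83, adjusted p = 0.00346). Ccl2, Ccl7 and Ccl8 were thus all highest in the LPS-MIC-1 libraries of muscle.

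Ccl5 was at 0.190, 0 and 0.377 FPKM in control, 0.384, 0.583 and 0 with LPS and 19.1, 22.8 and 20.5 with LPS-MIC-1. Control and LPS overlapped near 0, and LPS-MIC-1 stood above both. The log2 fold change was 6.02 (SE 0.773, adjusted p = 0.00023) against LPS and 6.44 (adjusted p = 0.000151) against control. Ccl3 was at 0.120, 0 and 0.240 FPKM in control, 0, 0.122 and 0.241 with LPS and 1.42, 0.566 and 13.0 with LPS-MIC-1. Replicate 3 was 13.1-fold the mean of replicates 1 and 2, and all 3 lay above every other library. LPS-MIC-1 was called higher than LPS (3.59, SE 1.11, adjusted p = 0.0233) and than control (3.60, adjusted p = 0.0225). Without LPS-MIC-1 replicate 3 the gene fell under the FPKM limit and was not tested. The call against LPS was lost without LPS replicate 1 (adjusted p = 0.0702), and that against control without control replicate 2 (adjusted p = 0.0671). Ccl4 was listed at 0 in all control and LPS libraries and at 0.602, 0 and 2.45 FPKM in LPS-MIC-1, too low to be tested.

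Ccl6 was the single tested member called lower in muscle. It was at 0.944, 1.11 and 1.18 FPKM in control, 2.38, 1.85 and 1.42 with LPS and 0.813, 0.838 and 0.848 with LPS-MIC-1. The LPS libraries were highest, and LPS-MIC-1 lay below both other groups without overlap. The rise between control and LPS did not pass (0.73, SE 0.208, adjusted p = 0.0503). The fall between LPS and LPS-MIC-1 passed (-1.06, adjusted p = 0.0026), and without LPS replicate 1 it dropped under the fold limit (-0.88, adjusted p = 0.0107). Ccl9 was at 0.729, 1.01 and 0.969 FPKM in control, 1.21, 1.37 and 0.886 with LPS and 1.59, 1.83 and 3.98 with LPS-MIC-1. It was called higher in LPS-MIC-1 than in control (1.25, adjusted p = 0.0127), but the fold without replicate 3 was under the limit (0.86, adjusted p = 0.0215). Against LPS its difference was 0.94 (adjusted p = 0.0439), also under the fold limit.

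Ccl11 was the most abundant member in control and LPS muscle. It was at 7.25, 7.36 and 8.01 FPKM in control, 9.50, 12.1 and 12.9 with LPS and 10.8, 9.30 and 8.97 with LPS-MIC-1. Every LPS library lay above control, by 0.59 on the log2 scale (SE 0.121, adjusted p = 0.0134), which was under the fold limit. LPS-MIC-1 overlapped with LPS (-0.24, adjusted p = 0.13, 95% interval -0.52 to 0.04). Ccl22 was at 0, 0.0449 and 0.0454 FPKM in control, 0, 0 and 0.0453 with LPS and 0.578, 0.471 and 0.447 with LPS-MIC-1. Without the FPKM limit, it was called higher in LPS-MIC-1 than in LPS (2.40, adjusted p = 8.25e-05) and than in control (2.22, adjusted p = 0.000123). All of its levels were under 1 FPKM.

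**Figure D3:**
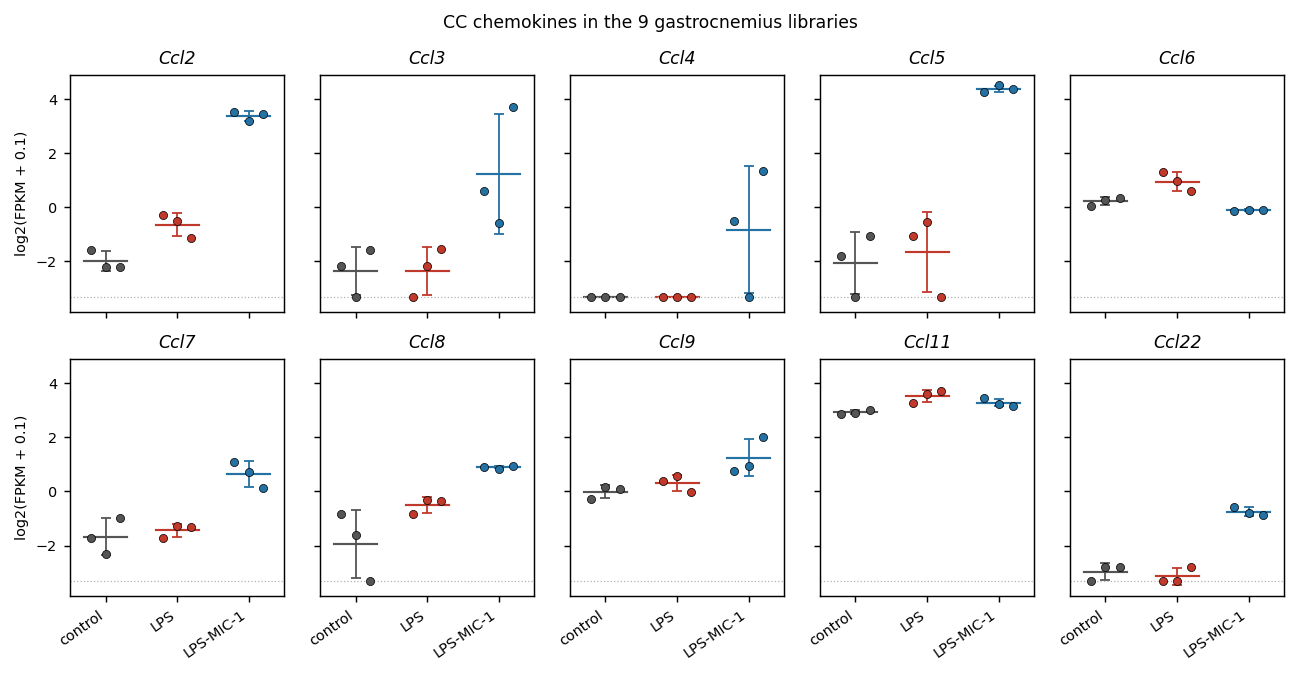
FPKM of the 10 CC chemokines in the 9 gastrocnemius libraries, on a log2(FPKM + 0.1) axis. Points are libraries (replicates 1 to 3 from left to right), horizontal lines are group means, bars are 1 SD, and the dotted line marks 0 FPKM. Ccl2, Ccl5, Ccl7, Ccl8 and Ccl22 are highest in all LPS-MIC-1 libraries, and Ccl3 has 1 LPS-MIC-1 library, at 13.0 FPKM, far above the other two.

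LPS-MIC-1 replicate 3 of the muscle stood apart in its macrophage markers. The 13 markers found summed to 169 FPKM in it, against 30.9 and 28.0 in replicates 1 and 2, 17.4 to 20.3 in control and 22.9 to 25.6 in LPS. Of the 13, 10 were higher in replicate 3 than in replicates 1 and 2. Lyz2 was at 78.3 FPKM against 5.27 and 3.93, and Emr1 at 0.800 FPKM against 0 in both. Aif1 was at 0 in all 9 muscle libraries. Mrc1 and Cd163, singled out after their values were seen, were not higher in replicate 3. The excess of replicate 3 over the mean of replicates 1 and 2 was set beside the level of the same genes in the libraries labelled C2C12 control, although the experiments were normalized separately. For 10 macrophage markers at 10 FPKM or more in those libraries, the excess was 0.996 to 2.08% of that level, with a median of 1.64%. For Ccl3, Ccl4 and Ccl9 it was 1.66, 1.46 and 1.73%, and for Ccl2 it was 0.732%. Set beside the C2C12 LPS libraries, the excess ran from 0.732 to 6.46% for the markers and from 0.0615 to 1.06% for the 4 chemokines. Ccl2, at 10.8 FPKM, and Ccl5, at 20.5 FPKM, lay between the other 2 libraries, and Ccl7, Ccl11 and Ccl22 were lowest in replicate 3. This comparison was made after the values were seen, and whether reads carried over from other libraries had a part in the levels of Ccl3, Ccl4 and Ccl9 was not tested.

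**Figure D4:**
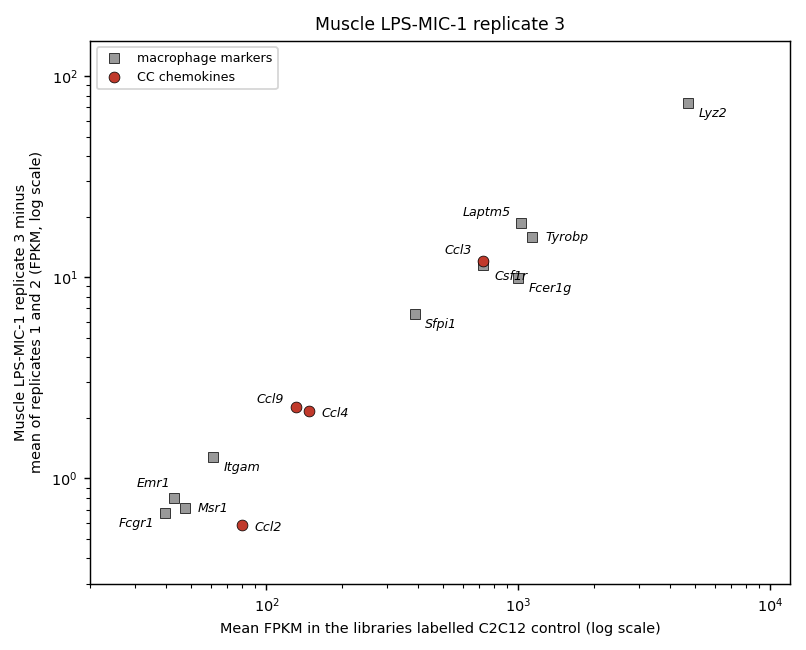
Excess of muscle LPS-MIC-1 replicate 3 over the mean of replicates 1 and 2 (FPKM, log axis) against the mean FPKM in the 3 libraries labelled C2C12 control (log axis). Squares are 10 macrophage markers and circles are the 4 CC chemokines at 10 FPKM or more in C2C12 control. Ccl3, Ccl4 and Ccl9 lie among the markers, at 1.46 to 1.73% of the C2C12 control level. Ccl2 in replicate 3 lay between replicates 1 and 2.

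Other cell markers moved in the muscle too. The 9 neutrophil markers found summed to 1.76 to 2.74 FPKM in control, 1.80 to 2.02 with LPS and 11.4 to 17.3 with LPS-MIC-1, and 1 of the 3 tested was called higher in LPS-MIC-1 than in LPS. That gene, S100a8, was at 0.739, 0 and 0.733 FPKM in LPS and 7.25, 7.47 and 7.41 in LPS-MIC-1, while Elane was at 0 in all 9 libraries. The LPS values of S100a8 were all under the FPKM limit, so its call is not read as support. Of the 6 macrophage markers tested, 2 were called higher in LPS-MIC-1 than in LPS and 0 lower. The 8 endothelial markers, led by Cdh5 and Cldn5, summed to 86.7 to 92.0 FPKM in control, 55.3 to 57.5 with LPS and 83.7 to 93.0 with LPS-MIC-1. The part of these markers in the chemokine levels was not tested.

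**Figure D5:**
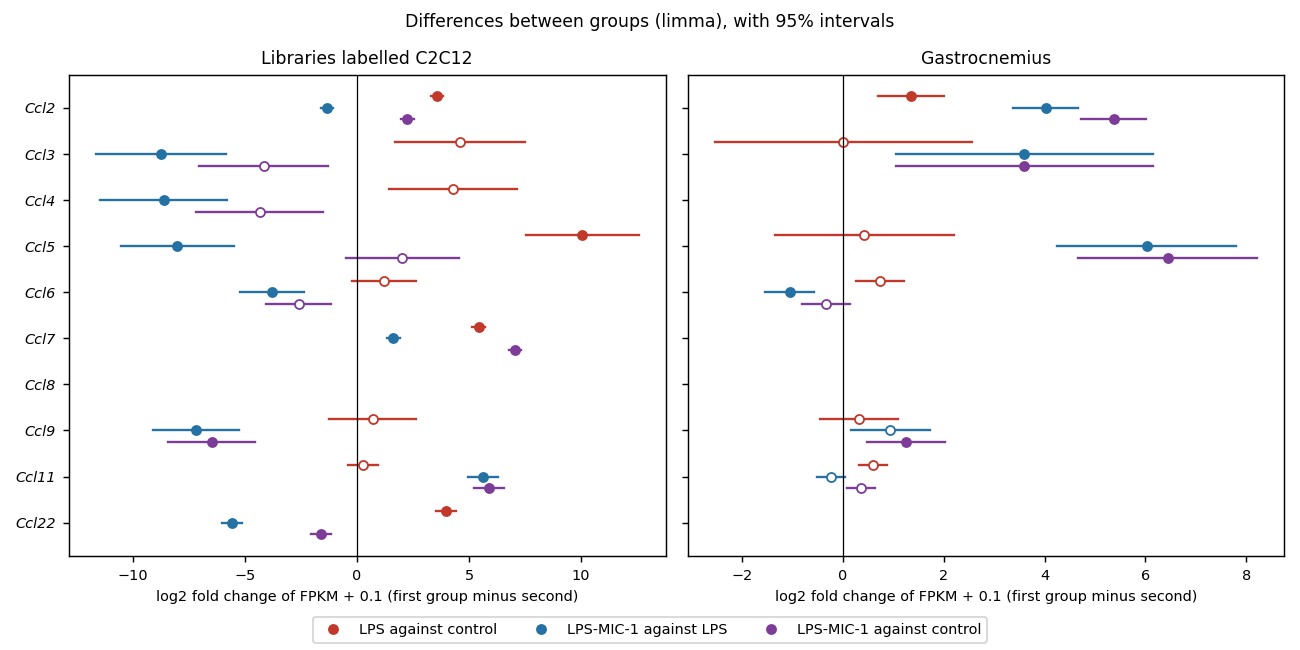
Log2 fold changes of FPKM + 0.1 from limma with 95% intervals for the tested CC chemokines, in the libraries labelled C2C12 (left) and in gastrocnemius (right). Filled points were called higher or lower, open points were not, and Ccl8 in C2C12 is left out because its other groups are listed at 0. Between LPS-MIC-1 and LPS, Ccl2, Ccl3 and Ccl5 lie below 0 on the left and above 0 on the right.

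The order of the levels differed between the groups. In C2C12 control it was Ccl3, Ccl4, Ccl9, Ccl2 and Ccl5, in LPS it was Ccl3, Ccl5, Ccl4, Ccl2 and Ccl9, and no neighbours among these 5 overlapped. In C2C12 LPS-MIC-1, Ccl2 was above Ccl7 without overlap, and the ranges of the next 7 each overlapped with the following member. In control muscle, Ccl11 stood above Ccl6 and Ccl9, which overlapped. In LPS muscle the order Ccl11, Ccl6, Ccl9 was without overlap. In LPS-MIC-1 muscle, Ccl5 was highest without overlap, followed by Ccl2 and Ccl11, which overlapped.

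Of the 13 other CC chemokines found, 1 was tested in the cultured cells. Ccl25, which draws lymphocytes to thymus and intestine, had a mean of 4.07 ± 0.0603 FPKM (SD, n = 3) in LPS-MIC-1, with means of 0.487 in control and 0.582 in LPS. It was called higher in LPS-MIC-1 than in LPS (2.67, adjusted p = 0.00013). Ccl25 passed the FPKM limit only through LPS-MIC-1, so this call is not read as support. In muscle 5 were tested, and limma called 0 of them between LPS and control, 1 of which had an unadjusted p under 0.05. With LPS-MIC-1, 1 was higher and 1 lower than with LPS. Ccl19, which draws T cells and dendritic cells through Ccr7, was at 2.09, 2.07 and 2.22 FPKM in control, 1.97, 2.55 and 2.51 with LPS and 47.4, 43.4 and 45.3 with LPS-MIC-1. Its log2 fold change against LPS was 4.23 (SE 0.0996, adjusted p = 9.92e-09). Ccl21a, another Ccr7 ligand, was called lower with LPS-MIC-1 than with LPS (-2.18, adjusted p = 0.00679). Near-identical copies of Ccl19 and of the Ccl21 genes may share reads, so their separate levels are uncertain. Ccl21b (-1.95) and Ccl25 (0.27) were not called in that comparison. Ccl27a, an epithelial attractant of T cells, was at 12.8, 13.8 and 18.3 FPKM in LPS and 12.1, 9.64 and 8.25 in LPS-MIC-1, and its difference of -0.58 was under the fold limit.

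Of the 14 CC receptors found, 3 were tested in the cultured cells and 2 in muscle. In the cultured cells, 1 was higher in LPS than in control and all 3 were lower with LPS-MIC-1 than with LPS. Ccr1, the receptor of Ccl3, Ccl5, Ccl6 and Ccl9, had a mean of 1.02 ± 0.0458 FPKM (SD, n = 3) in control, 19.6 ± 0.247 with LPS and 0.769 ± 0.394 with LPS-MIC-1. Ccr10 (-2.88) and Ccrl2, an atypical receptor (-6.58), were lower with LPS-MIC-1 than with LPS as well. In muscle, Ccrl2 did not pass in any comparison. Darc, now called Ackr1, binds chemokines on venules without signalling. It was at 7.33, 7.40 and 5.18 FPKM in LPS-MIC-1, with means of 1.09 in control and 1.28 in LPS, and was called higher than in LPS (2.28, adjusted p = 1.48e-05).

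Of 21 genes of the route from LPS to NF-κB, 20 were tested in the cultured cells and 17 in muscle. In the cultured cells, 5 were higher and 0 lower in LPS than in control. The largest differences were those of Ticam1, an adaptor of Tlr4 (2.40), and Nfkbia, the inhibitor that NF-κB itself induces (2.15). Between LPS-MIC-1 and LPS, 0 were higher and 9 lower, led by the adaptor Ticam2 (-5.90) and the LPS co-receptor Cd14 (-4.41). Cd14 is also abundant in macrophages, and these differences lie between the libraries with and without macrophage markers. Against control, 3 were higher and 7 lower, and Ticam2 (-5.78) differed most of those called, followed by Cd14 (-2.87). Traf6 (-3.04) did not pass. In muscle, limma called 0 of 17 between LPS and control, 4 of which had an unadjusted p under 0.05, and Relb (0.56) and Ly96 (0.33) had the largest differences. Nfkbia in muscle had means of 21.0 ± 1.87 FPKM (SD, n = 3) in control, 23.3 ± 0.369 with LPS and 112 ± 4.61 with LPS-MIC-1. Between LPS-MIC-1 and LPS, 5 were higher and 1 lower, with the largest differences in Cd14 (3.37) and the LPS-binding protein Lbp (2.72). Between LPS-MIC-1 and control, 5 were higher and 0 lower, again led by Cd14 (3.31) and Lbp (2.56). Cd14 was at 3.39, 3.74 and 15.5 FPKM in LPS-MIC-1, highest in replicate 3, the library with the most macrophage marker FPKM. With means of 0.525 in control and 0.480 in LPS, Cd14 passed the FPKM limit only through LPS-MIC-1. The muscle libraries labelled LPS thus lay near control in this route, and they overlapped with control in Ccl3, Ccl5, Ccl7, Ccl9 and Ccl22. In Ccl2, Ccl6 and Ccl11, by contrast, every LPS library lay above every control library, and Ccl2 was called higher. Ccl8 was barely apart, with LPS replicate 1 at 0.457 and control replicate 1 at 0.454 FPKM. In steps of its low values these were 2.05 and 2.03, so the 2 libraries do not differ by a read.

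The genes most like each member were found by Pearson's r of log2(FPKM + 0.1) over the 9 libraries of an experiment, as a description. The libraries share 3 groups, and hence large group differences raise r for many genes. In the cultured cells, 510 to 2038 of 10877 tested genes had an r above 0.9 with a given member. The 3 highest were Mfap3l, Tmem120a and Tulp3 for Ccl2, and Fosl1, Rhob and Slpi for Ccl7. They were Spp1, Ccl4 and Stx3 for Ccl3, Spp1, Ccl3 and Stx3 for Ccl4, and Il1a, Gm5483 and Cxcl3 for Ccl5. They were Nfatc4, Sgcb and Car8 for Ccl11, and those of Ccl8 included Dapk2 and Arsj, and those of Ccl9 Vps39 and H2-Q8. For Ccl6 they were Trmt11, Dmtf1 and Jmjd1c, and for Ccl22 Atg12, Agrn and Lhfpl2. All these r were at least 0.988. In muscle they were Esyt2, Atf3 and Zfp52 for Ccl2, and Xpo5, Crbn and Tnip2 for Ccl5. For Ccl3 they were Pfkp, Topbp1 and 2310016C08Rik, and for Ccl9 Mta2, Mpeg1 and Pgs1. For Ccl6 they were Abtb2, Crot and Scarb2, and for Ccl11 Lmo7, Anxa6 and Eif2c2. The muscle r were at least 0.945, and only 14 tested genes had an r above 0.9 with Ccl11, against 1300 with Ccl2.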

How the data were processed

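RNA-seq was analysed for 18 libraries, grouped by the sample labels. The authors pseudoaligned reads with kallisto, summarised transcripts per gene and deposited 1 FPKM value for each gene in each library, with mm9 listed as the genome build in the submitters' processing notes. In the muscle file, 11 columns were unnamed, of which 9 held per-sample values, and these were not used. The deposited DESeq2 tables hold the authors' own comparisons (base means, fold changes and p-values) and were not used. Gene order came from RefSeq (GRCm38.p6), another build than mm9, so no coordinates are given.

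The experiments were modelled separately on log2(FPKM + 0.1) with limma 3.58.1 (R 4.3.3), using all 9 libraries, with eBayes with a trend, for genes with a mean FPKM over 1. The added 0.1 understates changes of genes near 0. The thresholds are those of the study. The fitting steps were tested on simulated data. Reads per library are not known. Steps between low FPKM values gave relative depths of 0.549 to 1.21 in the cultured cells and 0.988 to 1.11 in muscle, so values near 0 come from few reads, and counting intervals are not given. Replicates correlated across genes with r of at least 0.936.

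The members, gene lists and marker lists were chosen with earlier results of these data known. Named genes are every member, each CC receptor and other CC chemokine that passed the FPKM limit, the 2 largest differences of the LPS to NF-κB list per comparison, the 3 most similar genes of each member, and the 2 most abundant markers of a list. Genes outside this rule (such as Myod1, Emr1, Aif1, Mrc1, Cd163, Elane and Nfkbia in muscle) were chosen after their values were seen. A few genes that the rule names are not reported here. Lymphocyte markers summed to 0.408 to 0.711 FPKM in C2C12 control, 0.574 to 0.775 with LPS and 8.16, 6.43 and 1.67 with LPS-MIC-1, and to 1.05 to 1.63 FPKM over the muscle libraries. The alternatives were other pseudocounts, FPKM limits, scalings, a fit without trend, a fit of 6 libraries, a replicate block and leaving out each library.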

Additional observations from a re-analysis of the deposited data

Results flagged for a closer look

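Between LPS-MIC-1 and LPS, 5 members moved in opposite directions in the libraries labelled C2C12 and in muscle, with every library on the side given. The log2 fold change was -1.33 in C2C12 and 4.02 in muscle for Ccl2, -8.75 and 3.59 for Ccl3, and -8.02 and 6.02 for Ccl5. It was -7.18 and 0.94 for Ccl9, the muscle value being under the fold limit, and -5.59 and 2.40 for Ccl22, the muscle value without the FPKM limit. Between LPS-MIC-1 and control, it was -4.17 and 3.60 for Ccl3, the C2C12 value not being called, -6.48 and 1.25 for Ccl9, and -1.60 and 2.22 for Ccl22. The difference between the experiments was not tested for any of them. The experiments differ in tissue, dose, route and time. Of the macrophage markers tested between LPS-MIC-1 and LPS, all 10 were called lower in C2C12. In muscle, 2 of 6 were called higher and 0 lower. Ccl3 and Ccl9 in muscle were highest in LPS-MIC-1 replicate 3 (13.0 and 3.98 FPKM), the library with the most macrophage marker FPKM. The part of these markers in the opposite directions was not tested.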

How the results depend on the processing

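Over the single members, 480 of 513 alternative values in C2C12 and 291 of 309 in muscle kept their direction and their side of the threshold. With the 6 libraries compared alone, 7 members were called between LPS and control in C2C12 in place of 4, and 6 in place of 10 between LPS-MIC-1 and LPS, which have fewer libraries behind each spread. In muscle, LPS against control went from 1 member called to 0 with a pseudocount of 1, a mean FPKM over 5 or the 6 libraries alone. LPS-MIC-1 against LPS went from 4 to 2 with a pseudocount of 1 and to 1 with a mean FPKM over 5. LPS-MIC-1 against control likewise went from 4 to 2 and to 1, and without an FPKM limit to 7, with more members tested. The cause was not tested for the pseudocount. Leaving out each library in turn gave 0 to 1, 2 to 5 and 2 to 4 members in these 3 muscle comparisons. In LPS against control, Ccl3 turned to -0.48 without control replicate 2, -0.08 without LPS replicate 2 and -0.39 without LPS replicate 3, and Ccl5 to -0.21 and -0.13 without the first and the second of these, all near 0 FPKM. Over the libraries left out, the highest values were 0.49 for Ccl3 and 1.26 for Ccl5. Quantile normalization moved the median of all muscle genes by -0.11 in both LPS-MIC-1 comparisons. Same-numbered libraries did not deviate together (r from -0.0757 to 0.0573 in C2C12 and -0.0540 to 0.0823 in muscle). Whether same-numbered libraries were handled together cannot be told from these values. With the replicate block, 1 call was lost, that of Ccl6 between LPS-MIC-1 and LPS in C2C12 (-3.80, adjusted p = 0.00111). Ccl22 against control in C2C12 was not called with a pseudocount of 1 (-0.29, adjusted p = 0.0147). Depth limits the muscle values of Ccl2, Ccl3, Ccl4, Ccl5, Ccl7, Ccl8 and Ccl22 in control and LPS.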
